A study of Homo sapiens with 8 samples.

Results

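The 9 genes described here encode ribonucleotide reductase and the enzymes that supply, salvage or degrade deoxynucleotides. They are RRM1, RRM2, RRM2B, TYMS, DCTD, DUT, TK1, DCK and SAMHD1, chosen by name among the 18417 genes that the array's annotation pairs with a probe set of their own. Each of the 9 had 1 such probe set, so no choice among probe sets was needed. RNA levels were read on 8 Affymetrix arrays that form 4 groups of 2. HCC1937+BRCA1 cells, a line that carries exogenous wild-type BRCA1, were exposed to COH29 (10 µM for 24 h) or were controls. HCC1937 cells, the breast cancer line with a truncated BRCA1, were likewise exposed to COH29 (10 µM for 24 h) or were controls. The exposure protocol is written on the records of all 8 samples, while a separate treatment label marks which arrays are COH29 and which are control. The labels name no vehicle, so culture or vehicle effects cannot be told apart from those of COH29. They also do not say how the exogenous BRCA1 was introduced, which promoter drives it, whether the line is a single clone, or whether the 2 arrays within a group stem from separate cultures. The p-values below therefore weigh a difference against a spread between these arrays that may be technical.

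Ribonucleotide reductase turns ribonucleoside diphosphates into deoxyribonucleoside diphosphates and is the committed step of deoxynucleotide supply. Its large subunit, RRM1, works with a small subunit, either RRM2, which is abundant in S phase, or RRM2B, which p53 induces after DNA damage. COH29 inhibits this enzyme. DCTD, DUT and TYMS lead from deoxycytidylate and dUTP to thymidylate, TK1 and DCK return nucleosides to the pool, and SAMHD1 breaks down deoxynucleoside triphosphates. Several of these genes are transcribed under control of E2F and NF-Y factors as cells enter S phase.

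Promoter windows of 4 of the genes are printed, chosen for the RNA patterns described below. RRM1 was lower with COH29, past the threshold in HCC1937+BRCA1 only. RRM2 and TYMS differed between the lines in the controls, and the order of the TYMS groups was opposite to that of RRM2B. DCTD was lower with COH29 in both lines. These patterns overlap, and the motifs were not tested against them. The sequences are RefSeq's, on build GRCh38.p14, from 250 bases before to 50 after the first start site listed for the gene, read 5′ to 3′ along the gene. RRM1 lies at chr11:4094435-4094734 (+ strand), RRM2 at chr2:10122489-10122788 (+ strand), TYMS at chr18:657403-657702 (+ strand) and DCTD at chr4:182917562-182917861 (- strand). Capitals mark matches, on either strand, to the CCAAT box bound by NF-Y (CCAAT), to E2F sites (TTTCCCGC, TTTCGCGC, TTTGCCGC or TTTGGCGC), to the cell cycle genes homology region, CHR (TTTGAA or TTCGAA), or to the ATF4 response element CARE (TGATGNAA).
RRM1: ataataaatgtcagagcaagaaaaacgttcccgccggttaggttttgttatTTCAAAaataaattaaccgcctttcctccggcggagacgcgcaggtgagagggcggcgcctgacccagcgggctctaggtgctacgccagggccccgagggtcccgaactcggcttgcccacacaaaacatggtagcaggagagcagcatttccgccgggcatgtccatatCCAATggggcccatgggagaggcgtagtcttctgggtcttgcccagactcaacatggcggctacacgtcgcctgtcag
RRM2: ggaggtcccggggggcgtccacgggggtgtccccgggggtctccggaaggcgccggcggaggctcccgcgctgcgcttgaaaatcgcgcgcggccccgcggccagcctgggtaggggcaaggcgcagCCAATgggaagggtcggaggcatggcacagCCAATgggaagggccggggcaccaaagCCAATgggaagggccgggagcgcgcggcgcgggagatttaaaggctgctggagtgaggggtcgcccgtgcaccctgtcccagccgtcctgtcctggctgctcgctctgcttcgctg
TYMS: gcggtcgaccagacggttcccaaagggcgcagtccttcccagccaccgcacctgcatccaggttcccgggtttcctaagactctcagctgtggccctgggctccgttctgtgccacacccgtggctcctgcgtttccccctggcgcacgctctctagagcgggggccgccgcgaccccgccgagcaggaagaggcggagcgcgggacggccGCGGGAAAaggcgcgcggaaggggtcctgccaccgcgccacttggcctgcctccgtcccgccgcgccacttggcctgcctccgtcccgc
DCTD: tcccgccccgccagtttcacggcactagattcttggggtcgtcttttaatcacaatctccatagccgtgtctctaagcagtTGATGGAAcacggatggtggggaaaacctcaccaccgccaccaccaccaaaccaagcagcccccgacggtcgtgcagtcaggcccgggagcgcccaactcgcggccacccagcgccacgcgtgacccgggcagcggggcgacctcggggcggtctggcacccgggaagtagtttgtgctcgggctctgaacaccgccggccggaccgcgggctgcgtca

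The RRM2 window held 3 CCAAT matches, with the first at position -123 and the last at -66 from the start site, and no match to the other 3 motifs. At least 3 CCAAT matches occurred in 3.42% of the first windows of all 27305 genes in the promoter table, and at least 1 in 35.7%. The RRM1 window held 1 CCAAT match at position -28 and 1 CHR match at -199, and 16.6% of all first windows had a CHR match. The TYMS window held 1 E2F match at -39, a motif found in 3.33% of all first windows, and the DCTD window held 1 CARE match at -169, found in 3.67%. No 2 of these matches overlapped. Of the 8 genes with a window in the table (all but RRM2B), 3 had a CCAAT match in the first window, 2 an E2F match, 1 a CHR match and 1 a CARE match. DCK carried the other E2F match and SAMHD1 the other CCAAT matches. RRM2, DCTD, TK1 and DUT have windows at further start sites. The second window of RRM2 had 1 CCAAT match in place of 3, and that of DCTD had no match to the 4 motifs, so the CARE match is in the first window only. The second window of TK1 had 2 CCAAT matches where the first had none, and of the 4 windows of DUT only the last had matches, 2 to E2F and 2 to CHR. These are matches of letters and do not show binding.

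Across genes, r between the 2 arrays within a group was 0.996 to 0.9974, and all 8 arrays were closest to their group mate. Of the epithelial and basal markers, KRT8, KRT18, KRT7, EPCAM, CDH1 and CDH3 had percentiles of 98.3 to 99.8 among all genes by mean level, LAMB3 92.7 and EGFR 87.7, while the basal keratins KRT5 and KRT14 were at 82 and 65.7. Of 6 luminal and hormone receptor markers, XBP1 was at 94.7, FOXA1 at 82.9, GATA3 at 76.3, ERBB2 at 75.9, ESR1 at 51.8 and PGR at 9.6. With COH29, 2 of these 6 rose (XBP1, and GATA3 at an adjusted p of 0.0422) and 2 fell (FOXA1 and ESR1) in HCC1937+BRCA1. In HCC1937, 1 rose (XBP1) and 1 fell (FOXA1). Of the markers of other cell types, the macrophage gene CD68 was at 89.7 and the other 8 measured lay between 3 (PTPRC, a leukocyte gene) and 50.5 (COL1A1, a fibroblast gene). KRT17 and KRT6A, defining markers of basal cells, were not measured by a probe set of their own. Of 9 measured markers of other cell types, 2 fell with COH29 in each line, the endothelial genes PECAM1 (-1.48 in HCC1937+BRCA1 and -1.95 in HCC1937, adjusted p = 1.73e-05 and 1.59e-05) and CDH5 (-0.50 and -1.28, adjusted p = 0.00381 and 6.95e-05), while their companion VWF lay at the 19.7 percentile. The log2 of the summed intensity of these 9 markers was 11.34 to 11.43 in HCC1937+BRCA1 with COH29, against 11.29 to 11.32 in its controls, and 11.38 to 11.44 in HCC1937 with COH29, against 11.57 to 11.63 in its controls. Their part in the results below was not tested. BRCA1 itself averaged 10.46 ± 0.05 (log2 intensity, SD, n = 2) in HCC1937+BRCA1 control and 10.55 ± 0.13 in HCC1937 control, a difference that did not pass (-0.08, adjusted p = 0.62). With COH29 it averaged 10.16 ± 0.12 in HCC1937+BRCA1 and 10.43 ± 0.04 in HCC1937, without overlap of arrays but short of the threshold (-0.27, adjusted p = 0.0722, and 0.0158 at the lowest over the alternatives). Its probe set was thus not higher in the line with exogenous BRCA1 in either condition. For BRCA1, the difference of COH29 effects between the lines, -0.19 ± 0.14, did not pass (adjusted p = 0.649). BRCA1 fell with COH29 in HCC1937+BRCA1 (-0.30, adjusted p = 0.0441) but not past the threshold in HCC1937 (-0.12, adjusted p = 0.444). That fall did not pass on omitting COH29 replicate 2 (0.226), control replicate 1 (0.189) or control replicate 2 (0.08) of HCC1937+BRCA1 or a COH29 array of HCC1937 (0.0527), nor with equal array medians (0.103) or cyclic loess (0.177). All levels below are log2 intensities, so a step of 1 is a doubling. Adjusted p stands for limma's p after Benjamini-Hochberg adjustment over all 18417 genes, and a gene is said to rise or fall only at an adjusted p under 0.05.

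In HCC1937+BRCA1, 1 of the 9 genes rose with COH29 (RRM2B) and 3 fell (DCTD, RRM1 and DCK). In HCC1937, 2 rose (RRM2B and RRM2) and 1 fell (DCTD). Of all genes 33.6% passed in HCC1937+BRCA1, 13.6% higher and 20.1% lower, and 22.7% in HCC1937, 10.2% higher and 12.5% lower, so 4 and 3 of 9 members passing is near the background. The COH29 and control arrays of a line did not overlap for 6 of the 9 genes in HCC1937+BRCA1 and 6 in HCC1937, beside 68.4% and 62.4% of all genes. If all array medians were made equal, 54.4% of all calls in HCC1937+BRCA1 were higher in place of 40.3%, and the 3 lower members became 1, DCTD, as they did after cyclic loess. The median change of the 9 genes was -0.22 in HCC1937+BRCA1 and -0.01 in HCC1937, beside 0.04 over all genes in each line. The lower count of 3 became 1 on leaving out HCC1937+BRCA1 COH29 replicate 2 or any of the 4 control arrays. The higher count of 2 in HCC1937 became 1 without any of the 4 HCC1937 arrays or either HCC1937+BRCA1 control array. RRM2B and DCTD passed the threshold in both lines in all 15 alternatives.

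**Figure D1:**
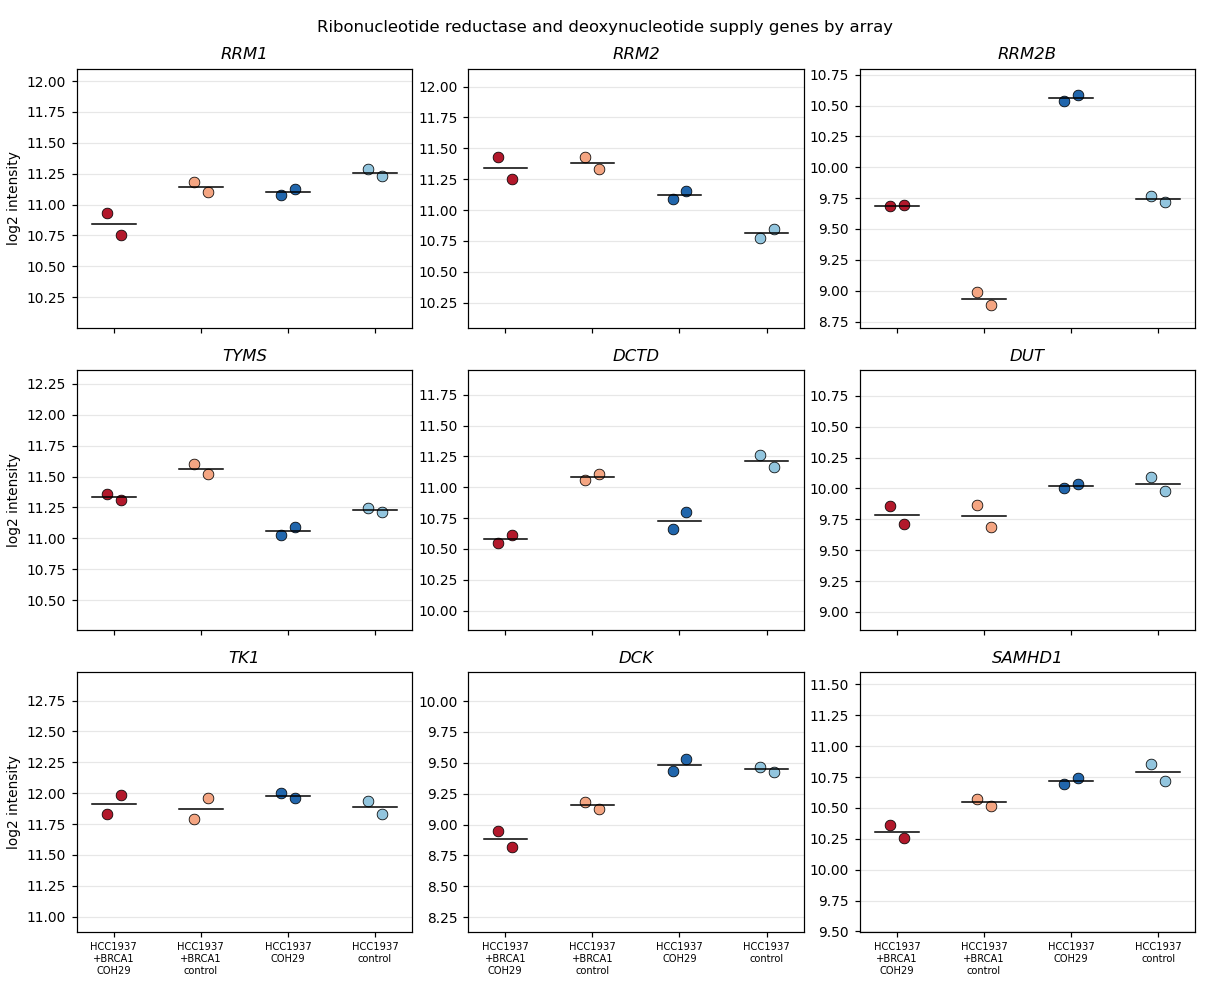
Log2 intensity (y axes, all spanning an equal range) of the 9 genes on the 8 arrays, grouped on the x axis by line and COH29, with points for arrays and a bar for the group mean. The RRM2B group means run from 8.94 in HCC1937+BRCA1 control to 10.56 in HCC1937 with COH29. The means between, 9.69 in HCC1937+BRCA1 with COH29 and 9.74 in HCC1937 control, lie close together. The TK1 arrays of the 4 groups intermix, though within HCC1937 those with COH29 lie above the controls.

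RRM2B, the small subunit used by resting and damaged cells, had the largest change of the 9 genes in each line. In HCC1937+BRCA1 it measured 9.68 and 9.69 with COH29, against 8.99 and 8.89 in the controls. In HCC1937 it measured 10.54 and 10.59 with COH29, against 9.77 and 9.72 in the controls. COH29 arrays lay above control arrays in each line, and both pairs of arrays were close together. The change was 0.75 ± 0.08 in HCC1937+BRCA1 (SE, n = 2 arrays per group, adjusted p = 0.000164), a 1.68-fold rise, and 0.82 ± 0.08 in HCC1937 (adjusted p = 0.00021), a 1.76-fold rise. The difference of these effects was -0.07 ± 0.12 (adjusted p = 0.871), with a 95% interval from -0.33 to 0.19. The lines also differed, with RRM2B lower in HCC1937+BRCA1 than in HCC1937 both with COH29 (log2 difference -0.87 ± 0.08, adjusted p = 5.71e-05) and in the controls (-0.81 ± 0.08, adjusted p = 8.81e-05). The mean of HCC1937+BRCA1 with COH29, 9.69, thus lay next to that of HCC1937 without it, 9.74, and these neighbours in the order of levels were not compared by a test.

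RRM2, the small subunit of S phase, followed another pattern. It measured 11.43 and 11.25 in HCC1937+BRCA1 with COH29, against 11.43 and 11.33 in the controls of that line. In HCC1937 it measured 11.09 and 11.15 with COH29, against 10.77 and 10.85 in the controls. The HCC1937+BRCA1 groups overlapped, and the HCC1937 groups did not. The change was -0.04 ± 0.09 in HCC1937+BRCA1 (adjusted p = 0.77, 95% interval -0.25 to 0.17) and a rise of 0.31 ± 0.09 in HCC1937 (adjusted p = 0.0417). The difference of effects was -0.35 ± 0.13, which did not pass the threshold (adjusted p = 0.305). The rise in HCC1937 no longer passed on leaving out its control replicate 1 (adjusted p = 0.192) or 2 (0.113), a COH29 array of that line (0.0966 for replicate 1, 0.127 for the other) or an HCC1937+BRCA1 control (0.0538). The gap between the lines was more stable: RRM2 was higher in HCC1937+BRCA1 control than in HCC1937 control by 0.57 ± 0.09 (adjusted p = 0.00153, 0.0169 at most over the 15 alternatives). With COH29 the gap was 0.22 ± 0.09 (adjusted p = 0.113, and 0.0417 after cyclic loess).

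RRM1, the large subunit, measured 10.93 and 10.75 in HCC1937+BRCA1 with COH29, against 11.18 and 11.10 in the controls. In HCC1937 it measured 11.07 and 11.13 with COH29, against 11.29 and 11.23 in the controls. COH29 arrays were below control arrays in each line. Only the change in HCC1937+BRCA1, -0.30 ± 0.09, passed the threshold (adjusted p = 0.0336), and that in HCC1937 was -0.16 ± 0.09 (adjusted p = 0.252). The difference of effects, -0.14 ± 0.13, did not pass (adjusted p = 0.726). That fall in HCC1937+BRCA1 did not pass once its COH29 replicate 2 (adjusted p = 0.19), its control replicate 1 (0.166), its control replicate 2 (0.0626) or an HCC1937 control (0.0541) was left out. Nor did it with equal array medians (-0.23, adjusted p = 0.0833) or after cyclic loess (-0.20, adjusted p = 0.103). Between the lines RRM1 differed by -0.26 ± 0.09 with COH29 (HCC1937+BRCA1 minus HCC1937, adjusted p = 0.0608, and 0.0441 without HCC1937+BRCA1 COH29 replicate 1) and by -0.12 ± 0.09 in the controls (adjusted p = 0.392).

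**Figure D2:**
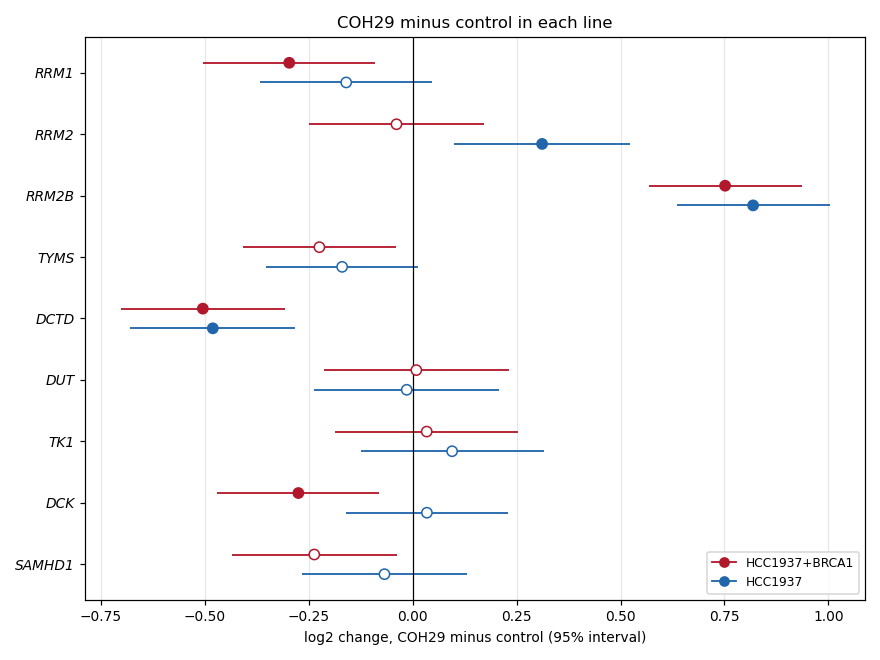
Log2 change with COH29 (x axis, COH29 minus control) of each gene (rows) in HCC1937+BRCA1 (red) and HCC1937 (blue), with 95% intervals; filled points passed an adjusted p of 0.05. RRM2B is at 0.75 and 0.82 and DCTD at -0.50 and -0.48, and the other changes lie between -0.30 and 0.31.

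Of the genes on the route to thymidylate, DCTD fell in both lines. DCTD encodes dCMP deaminase, which makes the dUMP that thymidylate synthase uses. It measured 10.55 and 10.61 in HCC1937+BRCA1 with COH29, against 11.06 and 11.11 in the controls. In HCC1937 it measured 10.66 and 10.80 with COH29, against 11.26 and 11.16 in the controls. COH29 arrays lay below control arrays of either line without overlap. The change was -0.50 ± 0.09 in HCC1937+BRCA1 (adjusted p = 0.0021), to 0.705 of the control level, and -0.48 ± 0.09 in HCC1937 (adjusted p = 0.00445), to 0.717 of it. The difference of effects was -0.02 ± 0.12 (adjusted p = 0.967), with a 95% interval from -0.30 to 0.26. Between the lines DCTD did not pass the threshold, at -0.15 ± 0.09 with COH29 (HCC1937+BRCA1 minus HCC1937, adjusted p = 0.25) and -0.13 ± 0.09 in the controls (adjusted p = 0.347).

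TYMS, thymidylate synthase, measured 11.36 and 11.31 in HCC1937+BRCA1 with COH29, against 11.60 and 11.52 in the controls. The HCC1937 arrays gave 11.03 and 11.09 with COH29, against 11.24 and 11.22 in the controls. The 4 groups did not overlap, and their order, lowest in HCC1937 with COH29 and highest in HCC1937+BRCA1 control, was the reverse of that of RRM2B. The changes with COH29 were -0.22 ± 0.08 in HCC1937+BRCA1 (adjusted p = 0.0611) and -0.17 ± 0.08 in HCC1937 (adjusted p = 0.174), and neither passed. That in HCC1937+BRCA1 did without genes under the 30 percentile of mean level (adjusted p = 0.032) or with a trended robust eBayes (0.00881). TYMS was higher in HCC1937+BRCA1 by 0.28 ± 0.08 with COH29 (adjusted p = 0.0284) and by 0.33 ± 0.08 in the controls (adjusted p = 0.0126). The control difference lost its call without HCC1937+BRCA1 control replicate 1 (adjusted p = 0.0851) or HCC1937 control replicate 1 (0.0588) or 2 (0.0774). The difference with COH29 lost it without HCC1937+BRCA1 COH29 replicate 1 (0.117) or 2 (0.072), COH29 replicate 1 (0.109) or 2 (0.0573) of HCC1937, or one of its controls (0.0508).

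DUT, the dUTP pyrophosphatase that keeps uracil out of DNA, measured 9.86 and 9.71 in HCC1937+BRCA1 with COH29, against 9.87 and 9.69 in the controls. HCC1937 arrays read 10.00 and 10.04 with COH29, against 10.09 and 9.98 in the controls. COH29 and control arrays overlapped in each line, with changes of 0.01 ± 0.10 (adjusted p = 0.952) and -0.01 ± 0.10 (adjusted p = 0.935) and 95% intervals from -0.21 to 0.23 and from -0.24 to 0.21. All HCC1937+BRCA1 arrays lay below all HCC1937 arrays, with differences of -0.23 ± 0.10 with COH29 (adjusted p = 0.106) and -0.26 ± 0.10 in the controls (adjusted p = 0.0798), short of the threshold. After cyclic loess the control difference was -0.28 (adjusted p = 0.0449).

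Among the salvage kinases, TK1, the S phase thymidine kinase, showed no change past the threshold. It measured 11.83 and 11.99 in HCC1937+BRCA1 with COH29, against 11.79 and 11.96 in the controls. In HCC1937 it measured 12.00 and 11.96 with COH29, against 11.94 and 11.83 in the controls. The changes were 0.03 ± 0.10 (adjusted p = 0.806, 95% interval -0.19 to 0.25) and 0.09 ± 0.10 (adjusted p = 0.529, 95% interval -0.13 to 0.32). In HCC1937+BRCA1 the arrays overlapped, and their spread (SD 0.11 and 0.12) was larger than the change there. In HCC1937 the COH29 arrays lay above the control arrays, and their spread (SD 0.03 and 0.07) was smaller than the change there.

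DCK phosphorylates deoxycytidine and activates drugs such as gemcitabine and cytarabine. It measured 8.94 and 8.82 in HCC1937+BRCA1 with COH29, against 9.19 and 9.13 in the controls. Values in HCC1937 were 9.44 and 9.53 with COH29, against 9.47 and 9.43 in the controls. The groups were apart in HCC1937+BRCA1 and overlapped in HCC1937. The change was -0.27 ± 0.09 in HCC1937+BRCA1 (adjusted p = 0.036) and 0.03 ± 0.09 in HCC1937 (adjusted p = 0.81), and the difference of effects, -0.31 ± 0.12, did not pass (adjusted p = 0.326). That fall in HCC1937+BRCA1 did not pass once its COH29 replicate 2 (adjusted p = 0.179), its control replicate 1 (0.162), its control replicate 2 (0.0762) or an HCC1937 control (0.0596) was left out. Nor did it with equal array medians (-0.21, adjusted p = 0.0878) or after cyclic loess (-0.17, adjusted p = 0.14).

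DCK was also lower in HCC1937+BRCA1 than in HCC1937, with log2 differences of -0.60 ± 0.09 with COH29 (adjusted p = 0.000694) and -0.29 ± 0.09 in the controls (adjusted p = 0.0297). The first passed in all 15 alternatives. The second did not pass without HCC1937+BRCA1 control replicate 1 (0.078) or 2 (0.134) or HCC1937 control replicate 1 (0.144) or 2 (0.0991).

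SAMHD1, which hydrolyses deoxynucleoside triphosphates and restricts retroviruses, measured 10.36 and 10.26 in HCC1937+BRCA1 with COH29, against 10.58 and 10.51 in the controls. For HCC1937 the values were 10.69 and 10.75 with COH29, against 10.85 and 10.72 in the controls. The groups were apart in HCC1937+BRCA1 and overlapped in HCC1937, as for DCK. The changes, -0.24 ± 0.09 in HCC1937+BRCA1 (adjusted p = 0.0665) and -0.07 ± 0.09 in HCC1937 (adjusted p = 0.623), did not pass. That in HCC1937+BRCA1 did without genes under the 30 percentile of mean level (adjusted p = 0.0361) or with a trended robust eBayes (0.0155). SAMHD1 was lower in HCC1937+BRCA1 with COH29 (log2 difference -0.41 ± 0.09, adjusted p = 0.00611), and was at -0.24 ± 0.09 in the controls (adjusted p = 0.0652, and 0.0319 after cyclic loess).

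**Figure D3:**
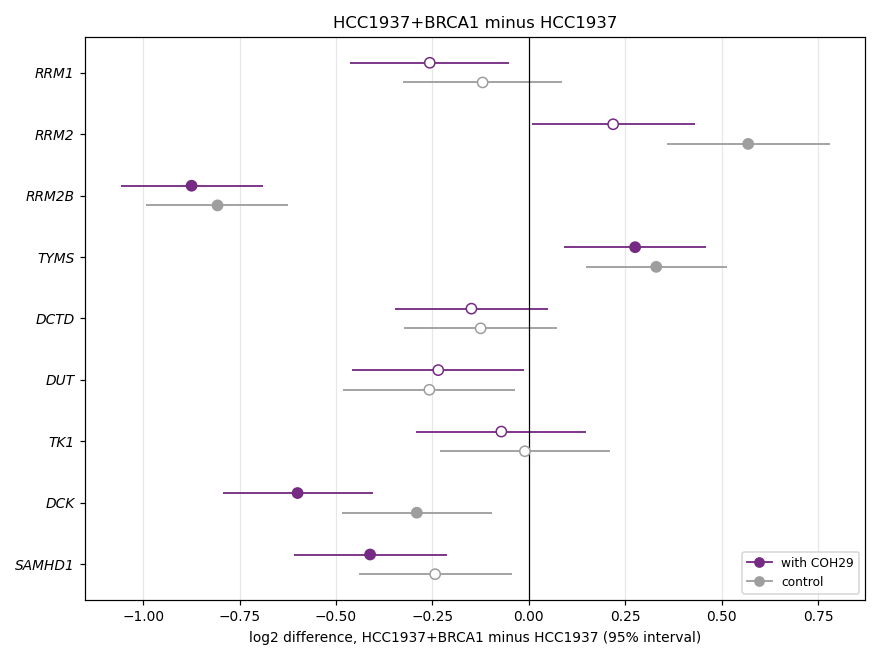
Log2 difference between the lines (x axis, HCC1937+BRCA1 minus HCC1937) of each gene (rows) with COH29 (purple) and in controls (grey), with 95% intervals; filled points passed an adjusted p of 0.05. RRM2B is lowest at -0.87 and -0.81, and RRM2 and TYMS lie to the right of 0.

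Between the lines, HCC1937+BRCA1 with COH29 had 1 member higher (TYMS) and 3 lower (RRM2B, DCK and SAMHD1) than HCC1937 with COH29, where 31.6% of all genes passed, 14.2% higher and 17.4% lower. HCC1937+BRCA1 control had 2 higher (RRM2 and TYMS) and 2 lower (RRM2B and DCK) than HCC1937 control, where 31.2% of all genes passed, 16.4% higher and 14.8% lower. Arrays of the lines did not overlap for 8 of the 9 genes with COH29 and 8 without it, all but TK1, beside 60.6% and 63.6% of all genes. The 1 higher with COH29 became 0 without any 1 of the 4 COH29 arrays or either HCC1937 control array. In the controls, the 2 higher became 1 without HCC1937+BRCA1 control replicate 1 or either HCC1937 control array, and the 2 lower became 1 without any 1 of the 4 control arrays. Of the 9 genes, 0 passed the test of the difference of COH29 effects, where 0.956% of all genes did by limma. At an unadjusted p under 0.05, 2 did, RRM2 and DCK, beside 13.2% of all genes. The comparisons of lines and of COH29 share arrays, so their values for a gene are not independent. As in any RNA extracted from whole cultures, a change in the share of cells that express a gene and a change of RNA per cell cannot be told apart.

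For RRM2 and RRM2B, the genes with the most similar profile over the 8 arrays were found among all genes by Pearson's r, as a description. The arrays fall into 4 groups, so such an r mostly reflects 4 group levels. RRM2 was most like PIK3R3 (r = 0.988), SCML1 (0.986), HNRNPAB (0.984), LRRC8B (0.982) and PART1 (0.981). RRM2B was most like OXSR1 (r = 0.999), WIPI1 (0.997), DNAJC9 (0.997), G3BP2 (0.995) and STRIP2 (0.995). WIPI1, an autophagy gene, had changes of 1.09 in HCC1937+BRCA1 and 1.37 in HCC1937, more than the 0.75 and 0.82 of RRM2B.

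The genes around the 9 members were taken as lists by role. The list counts stand beside the shares of all genes that passed. These were 33.6% in HCC1937+BRCA1, 13.6% higher and 20.1% lower, and 22.7% in HCC1937, 10.2% higher and 12.5% lower. A count near these shares is not a result about its list. In each list by role, cell cycle markers included, 0 genes passed the test of the difference of COH29 effects, beside 0.956% of all genes. A call in 1 line only therefore does not show that the lines responded differently. In the list of reductants that return electrons to ribonucleotide reductase, 3 of 9 rose and 2 fell in HCC1937+BRCA1, and 2 rose and 1 fell in HCC1937, with list medians of -0.07 and 0.01. GLRX (glutaredoxin) rose by 0.96 and 1.27 in HCC1937+BRCA1 and HCC1937 (adjusted p = 0.000198 and 0.000106), and TXNRD1 (thioredoxin reductase) by 0.43 and 0.65 (adjusted p = 0.00704 and 0.0013). GSR, glutathione reductase, fell by 0.39 and 0.28 on the log2 scale (adjusted p = 0.00508 and 0.0336). TXN2, the mitochondrial thioredoxin, was at -0.31 and -0.23 (adjusted p = 0.0155 and 0.0721). Leaving out COH29 replicate 1 or a control of HCC1937+BRCA1 gave 1 lower there in place of 2, and leaving out any HCC1937 array gave 0 lower in place of 1, GSR.

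In the folate cycle that feeds TYMS, 1 of 9 rose and 4 fell in HCC1937+BRCA1, and 1 rose and 2 fell in HCC1937, with medians of -0.15 and -0.02. The mitochondrial enzyme gene MTHFD2 rose by 1.57 and 1.02 (adjusted p = 4.25e-06 and 6.97e-05). SLC19A1, the reduced folate carrier, fell by 0.69 and 0.63 on the log2 scale (adjusted p = 0.00132 and 0.00335). SHMT1 fell by 0.53 and 0.30 (adjusted p = 0.00197 and 0.0434), and FPGS was at -0.59 (adjusted p = 0.000688) and -0.17 (adjusted p = 0.181). Omitting any single array of the 8 gave 1 lower in HCC1937 in place of 2.

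All 5 measured genes of de novo pyrimidine synthesis fell in HCC1937+BRCA1 and 3 in HCC1937, with 0 higher, and the medians were -0.72 and -0.55, beside 0.04 over all genes in each line. CAD, which catalyses the opening steps, fell by 0.72 and 0.67 on the log2 scale (adjusted p = 0.000347 and 0.000927). DHODH, the mitochondrial step, fell by 0.87 and 0.74 (adjusted p = 0.00105 and 0.00399), and the CTP synthase gene CTPS2 by 0.79 and 0.55 (adjusted p = 0.000168 and 0.00189). CTPS1 was at -0.49 and -0.16 (adjusted p = 0.00178 and 0.201). Leaving out any 1 array left these counts within 1.5 times. Of the 12 measured genes of de novo purine synthesis, 7 fell and 0 rose in HCC1937+BRCA1, and 4 fell and 2 rose in HCC1937, with medians of -0.33 and -0.15. PFAS fell by 0.60 and 0.40 on the log2 scale (adjusted p = 0.000581 and 0.00778), and ATIC by 0.59 and 0.34 (adjusted p = 0.000776 and 0.0217). GART fell by 0.56 and 0.43 (adjusted p = 0.00483 and 0.024), and PPAT, the committed step, was at 0.14 and 0.51 (adjusted p = 0.32 and 0.00676). In HCC1937+BRCA1, 3 genes were lower when control replicate 1 was omitted, and 1 gene was higher when COH29 replicate 1 was. In HCC1937, 1 gene was lower on omitting COH29 replicate 1, 0 on omitting control replicate 1 and 2 on omitting control replicate 2. There 1 gene was higher on omitting either COH29 array or control replicate 1, and 0 on omitting control replicate 2.

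Of 16 other nucleoside and nucleotide kinase genes, 4 fell and 0 rose in HCC1937+BRCA1, and 3 fell and 1 rose in HCC1937, with medians of -0.10 and -0.04. These counts are near the shares of all genes that passed, 33.6% and 22.7%. NME6 fell by 0.65 and 0.58 on the log2 scale (adjusted p = 0.000614 and 0.00201), CMPK2 by 0.54 and 0.64 (adjusted p = 0.00283 and 0.00179), and DTYMK, the thymidylate kinase that acts after TYMS and TK1, by 0.46 and 0.44 (adjusted p = 0.00444 and 0.00903). UCK1, a uridine-cytidine kinase, was at -0.53 and -0.20 (adjusted p = 0.00363 and 0.2). The 1 higher in HCC1937 was TK2, the mitochondrial thymidine kinase (0.32, adjusted p = 0.0336), which did not pass when COH29 replicate 2 or a control of that line was omitted. Of 17 genes of nucleotide breakdown and pool cleaning, 3 rose and 5 fell in HCC1937+BRCA1, and 3 rose and 3 fell in HCC1937, with medians of 0.01 and -0.10. UPP1, uridine phosphorylase, rose by 1.18 and 1.03 (adjusted p = 2.47e-05 and 0.000116). PNP, purine nucleoside phosphorylase, rose by 0.62 and 0.89 (adjusted p = 0.000375 and 0.000133), and the pyrimidine nucleotidase gene NT5C3A by 0.76 and 0.57 (adjusted p = 0.000342 and 0.00272). DCTPP1, a dCTP pyrophosphatase, fell by 0.78 and 0.41 on the log2 scale (adjusted p = 0.00103 and 0.0389). Omitting COH29 replicate 2 or control replicate 1 of HCC1937+BRCA1 gave 3 lower there in place of 5. In HCC1937, omitting any of its own arrays gave 0 lower and omitting any HCC1937+BRCA1 array gave 1, in place of 3. Of 7 nucleoside transporters, 1 rose (SLC28A3, by 0.58) and 1 fell (SLC29A2, -0.29) in HCC1937+BRCA1, and 1 rose in HCC1937 (SLC28A3, by 0.62). SLC28A3 did not pass in HCC1937+BRCA1 when its COH29 replicate 2 or control replicate 1 was omitted, nor in HCC1937 when a control was, and SLC29A2 did not when any HCC1937+BRCA1 array was. The transporter counts were also near the shares over all genes, and the list medians were 0.13 and 0.16.

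**Figure D4:**
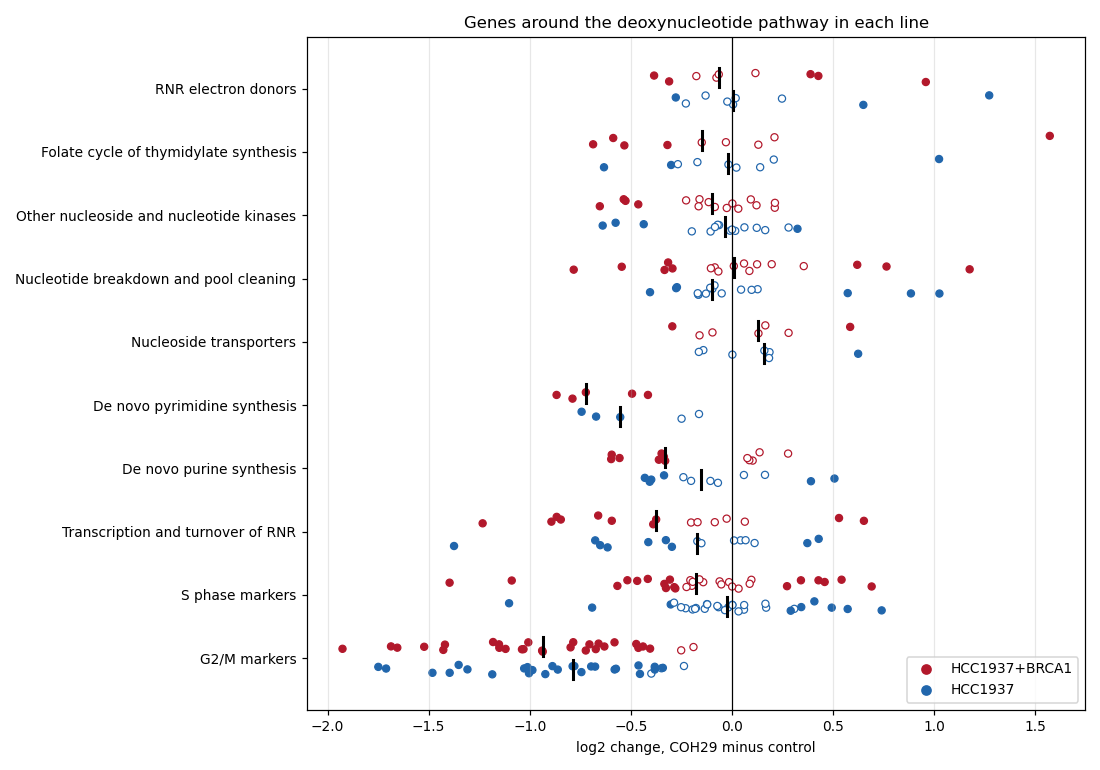
Log2 change with COH29 (x axis, COH29 minus control) of the genes of 10 lists (rows) in HCC1937+BRCA1 (red) and HCC1937 (blue); filled points passed an adjusted p of 0.05 and black bars are list medians. The 5 pyrimidine synthesis genes lie left of 0 in both lines, and the median of the G2/M markers is -0.94 and -0.79.

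Among genes known to set the transcription or turnover of ribonucleotide reductase subunits, 2 of 15 rose and 8 fell in HCC1937+BRCA1, and 2 rose and 7 fell in HCC1937, with medians of -0.37 and -0.17. CCNF encodes cyclin F, which directs the degradation of RRM2 protein, and fell by 1.23 and 1.37 on the log2 scale (adjusted p = 4.3e-05 and 6.44e-05). FOXM1 fell by 0.85 and 0.65 (adjusted p = 0.000144 and 0.00103), RB1 by 0.66 and 0.68 (adjusted p = 0.000662 and 0.00103), and E2F4 by 0.87 and 0.41 (adjusted p = 0.000462 and 0.0294). The 2 that rose in each line were E2F7, by 0.53 and 0.43 (adjusted p = 0.00145 and 0.00696), and NFYA, by 0.65 and 0.37 (adjusted p = 0.000962 and 0.0246). In HCC1937, 3 were lower on omitting COH29 replicate 1, and 4 on omitting COH29 replicate 2 or a control. There 1 was higher on omitting a COH29 array or control replicate 1, and 0 on omitting control replicate 2.

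The cell cycle markers moved with COH29 and are given beside the S phase genes RRM1, RRM2, TYMS and TK1. Of 29 G2/M markers, 27 fell and 0 rose in HCC1937+BRCA1 and 26 fell and 0 rose in HCC1937, with medians of -0.94 and -0.79. The log2 of their summed intensity was 15.01 to 15.08 in HCC1937+BRCA1 with COH29, against 15.92 to 16.03 in its controls, and 15.17 to 15.24 in HCC1937 with COH29, against 16.05 to 16.06 in its controls. BUB1B fell by 1.69 and 1.31 on the log2 scale, CCNB1 by 1.52 and 1.35, AURKA by 1.66 and 1.71, and CDCA3 by 1.18 and 1.40. Of 30 S phase markers, 6 rose and 11 fell in HCC1937+BRCA1 and 6 rose and 3 fell in HCC1937, with medians of -0.18 and -0.03. Their summed intensity on the log2 scale was 15.82 on each HCC1937+BRCA1 array with COH29, against 15.90 to 15.92 in its controls, and 15.90 to 15.94 in HCC1937 with COH29, against 15.86 to 15.87 in its controls. GINS1 fell by 1.09 and 0.69 and POLE2 by 1.40 and 1.10 on the log2 scale, while CDC6, which licenses origins, rose by 0.69 and 0.74, and RFC3, a clamp loader subunit, was at -0.52 and -0.12 (adjusted p = 0.00106 and 0.311). In HCC1937+BRCA1, 3 were higher on omitting control replicate 2, and 7 lower on omitting replicate 1 of COH29 or of the controls. In HCC1937, 2 were higher on omitting COH29 replicate 2 and 3 on omitting a control. The part of cell cycle distribution in the values of the 9 genes was not tested.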

How the data were processed

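RNA was measured on 8 Affymetrix arrays in 4 groups. TRIzol extraction and biotin labelling are given in the labels' protocols. The authors deposited a log2 intensity for each of 33297 probe sets on an array. The submitters' processing notes name RMA, which corrects background, equalises the arrays' distributions and summarises probes, and Partek, without versions. Once sorted, the arrays' values were within 0.297 of each other. Scanner files were not used here. Precision is set by how many arrays there are, and a change had a median SE of 0.103.

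Of the probe sets, 19460 had 1 gene in the platform annotation, 1754 had several and 12083 had none; the last 2 kinds were left out. The probe set with the highest mean was kept for each of 18417 genes. The 4 group means were fitted over all arrays by limma (version 3.58.1, R version 4.3.3; lmFit then eBayes, with 4 residual degrees of freedom), with Benjamini-Hochberg adjustment over all genes and a threshold of 0.05. The fit was tested on simulated data. The replicate numbers of the labels are not stated to pair arrays. Promoter windows came from RefSeq (GRCh38.p14). Python 3.11.15, pandas 2.3.3 and matplotlib 3.10.9 made tables and figures.

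Besides the members, BRCA1, up to 4 genes per list with the smallest p among those called in either line, and the 5 genes most like RRM2 and RRM2B were named. The marker genes, TK2, E2F7 and NFYA were named outside this rule, after their values were seen. The members, lists and tests were chosen with earlier results of these data known. The 15 alternatives were averaging all probe sets of a gene, dropping genes below the 30 percentile of mean level, equal array medians, cyclic loess, a trended robust eBayes, only the 4 arrays compared (not for the difference of effects), the replicate number as a block, and leaving out each of the 8 arrays, which leaves a lone array assumed to vary like the others.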

Additional observations from a re-analysis of the deposited data

How the results depend on the processing

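RRM2B and DCTD passed with COH29 in both lines under all 15 alternatives, as did the line differences of RRM2B, of RRM2 in the controls, and of DCK and SAMHD1 with COH29. The causes of the changes below were not tested. In place of the 3 members lower with COH29 in HCC1937+BRCA1, 5 were lower without genes under the 30 percentile or with the trended robust eBayes, 1 with equal array medians, cyclic loess or only the 4 arrays compared, and 1 to 3 on leaving out an array. The 2 higher in HCC1937 became 1 with only the 4 arrays compared or the replicate number as a block, and 1 to 2 on leaving out an array. For HCC1937+BRCA1 minus HCC1937 in the controls, the 2 lower became 4 under the percentile filter, cyclic loess or the trended robust eBayes, and on leaving out an array 1 to 2 were higher and 1 to 2 lower. With COH29, the 1 higher became 2 under cyclic loess or the trended robust eBayes, 0 with only the 4 arrays compared and 0 to 1 on leaving out an array, and the 3 lower became 5 under the trended robust eBayes. None of the members passed the test of the difference of effects under any alternative run.

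Values that turned sign were never past the threshold. With equal array medians and with cyclic loess, the COH29 change was 0.0277 and 0.0546 for RRM2 in HCC1937+BRCA1 and 0.0174 and 0.0207 for DUT in HCC1937, and the difference of effects was 0.0109 and 0.0513 for DCTD. With cyclic loess that difference was 0.0129 for RRM2B and 0.0153 for TYMS. On leaving out an array, which assumes that a lone array varies like the others, the COH29 change in HCC1937+BRCA1 ranged from -0.1301 to 0.0525 for RRM2, from -0.0819 to 0.0997 for DUT and from -0.0501 to 0.1179 for TK1. In HCC1937 it ranged from -0.0703 to 0.0419 for DUT and from -0.0121 to 0.0809 for DCK. The difference of effects ranged from -0.0898 to 0.0419 for DCTD, from -0.0677 to 0.1139 for DUT and from -0.145 to 0.023 for TK1. The line difference ranged from -0.0943 to 0.0737 for TK1 and from -0.1772 to 0.012 for BRCA1 in the controls, and from -0.1505 to 0.008 for TK1 with COH29.

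The labels do not say whether the replicate numbers pair arrays. Array deviations with the same number correlated at 0.26 between COH29 and control in HCC1937+BRCA1, 0.037 in HCC1937 and -0.204 to -0.086 between lines. With the replicate block, RRM2 in HCC1937 (adjusted p = 0.062) and, with COH29 in HCC1937+BRCA1, DCK (adjusted p = 0.0544) and BRCA1 (adjusted p = 0.0658) no longer passed.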
